A study of Mus musculus with 6 samples.

Results

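The genes described here are 9 chemokines that fibroblasts can make, *Ccl2*, *Ccl7*, *Ccl11*, *Cxcl1*, *Cxcl5*, *Cxcl10*, *Cxcl12*, *Cxcl14* and *Cx3cl1*, together with interleukin 6 (*Il6*). They were taken by symbol, 10 of the 28987 genes in the table, each with 1 row. Their transcript levels were measured by RNA-seq in EGFP+ ventricular cells, isolated by flow sorting 4 weeks after transaortic constriction (TAC), a surgery that narrows the aorta and loads the heart with pressure. The study asked how myofibroblasts, the matrix-producing form of activated fibroblasts, differ when they lack Hsp47, the collagen chaperone encoded by *Serpinh1*.

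All mice carried the *Postn*-MCM allele, a tamoxifen-inducible Cre (MerCreMer) knocked into the periostin locus, and the R26eGFP reporter, which Cre switches on. The 3 Hsp47-deleted libraries came from mice that were also Hsp47 flox/flox, an allele that the labels do not give to the 3 controls. By the sample records, mice were 8 to 10 weeks old at TAC and received tamoxifen by injection at 100 mg/kg and in chow at 40 mg/kg, in both groups. The paper's methods give other doses for both routes. The sorted population is therefore set by *Postn* expression, since the periostin locus drives the Cre that both turns on EGFP and removes *Hsp47*. By the run numbers in the labels, control replicates 3 and 4 belong to one sequencing run, here called the first. The second run holds control replicate 2 with all 3 Hsp47-deleted libraries, replicates 1, 2 and 3. The comparison of 3 against 3 thus mixes group with run, and the difference of each Hsp47-deleted library from control replicate 2 is given beside it as the within-run value, which rests on 1 control library.

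Chemokines are small secreted proteins that attract leukocytes along a gradient by binding G protein-coupled receptors. In an injured heart, fibroblasts are among the cells that make them, and signals such as interleukin 1 and tumor necrosis factor switch many of them on through the transcription factor NF-κB. Interleukin 6 is a cytokine of the acute inflammatory response that signals through gp130 and STAT3, and fibroblasts are a known source of it.

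Several of these genes sit next to each other. In GRCm38, with positions from GENCODE M21, *Ccl2* (chr11:82035571-82037453), *Ccl7* (chr11:82045712-82047525) and *Ccl11* (chr11:82057823-82062955) follow each other on the plus strand. *Cxcl5* (chr5:90759360-90761624) and *Cxcl1* (chr5:90891241-90893115), both on the plus strand, and *Cxcl10* (chr5:92346638-92348889, minus strand) share chromosome 5 with *Il6* (chr5:30013114-30019981, plus strand). *Cxcl12* (chr6:117168535-117181367, plus strand), *Cx3cl1* (chr8:94772009-94782427, plus strand) and *Cxcl14* (chr13:56288643-56296551, minus strand) are each the only one of the 10 on their chromosome. All 10 are protein coding, and none had a transcript of another gene that matched over at least 80% of its length with 95% identity or better. Exons of 1 gene, *Cxcl10*, share bases with another gene, *Art3* on the opposite strand.

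The RefSeq promoter table (GRCm38.p6, 250 bases before to 50 after each start) held 6 of the 10 genes and none for *Ccl2*, *Ccl7*, *Ccl11* and *Cxcl5*. *Il6* and *Cxcl1* are shown because both had their highest value in the same library (given with their values), *Cxcl10* because it held the most motif matches, and *Cx3cl1* because it was the gene called between the groups. Each sequence is the plus or minus strand of its gene, 5′ to 3′, cut before the first base of any GENCODE exon, with motif matches in capitals.
Il6, chr5:30012864-30013113, plus strand: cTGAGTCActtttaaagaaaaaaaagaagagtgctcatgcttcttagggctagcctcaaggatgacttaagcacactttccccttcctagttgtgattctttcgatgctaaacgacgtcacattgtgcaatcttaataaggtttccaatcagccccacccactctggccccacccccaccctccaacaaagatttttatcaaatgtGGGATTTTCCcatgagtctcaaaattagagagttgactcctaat
Cxcl1, chr5:90890995-90891240, plus strand: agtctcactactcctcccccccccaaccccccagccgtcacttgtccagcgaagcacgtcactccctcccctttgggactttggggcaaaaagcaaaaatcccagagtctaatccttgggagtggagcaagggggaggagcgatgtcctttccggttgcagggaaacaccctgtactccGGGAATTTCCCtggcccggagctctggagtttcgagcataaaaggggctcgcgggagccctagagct
Cxcl10, chr5:92348890-92349139, minus strand: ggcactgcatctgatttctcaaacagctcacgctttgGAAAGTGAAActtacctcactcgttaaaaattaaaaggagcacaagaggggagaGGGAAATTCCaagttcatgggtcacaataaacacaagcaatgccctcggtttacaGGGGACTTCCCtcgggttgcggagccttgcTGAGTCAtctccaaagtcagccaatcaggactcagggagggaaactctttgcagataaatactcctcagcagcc
Cx3cl1, chr8:94771930-94772008, plus strand: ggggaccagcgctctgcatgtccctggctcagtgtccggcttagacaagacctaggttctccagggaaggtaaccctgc

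The motifs searched on both strands were the NF-κB consensus decamer, the interferon-stimulated response element (TTTC, any 2 bases, TTTC) and the AP-1 motif TGANTCA. In the full 300-base windows, the NF-κB motif matched once in *Il6* and at 1 place in *Cxcl1*, where 2 matches overlap by all but 1 base. *Cxcl10* held 3 NF-κB matches, 2 of them overlapping in the same way, with 1 interferon-stimulated response element and 1 AP-1 match, and *Il6* also held 1 AP-1 match. *Cxcl14* held 1 interferon-stimulated response element match, and no match to any of the motifs lay in the windows of *Cxcl12* and *Cx3cl1*. Of the 32851 promoters in the table, 8.46% held the NF-κB motif, 3.44% the interferon-stimulated response element and 7.81% the AP-1 motif. A match is a string of letters and does not show that a factor binds there.

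The deposited values are log2(value + 1), with the linear unit not named, so levels are compared between libraries and not between genes. Values per library are listed in the order control replicates 3, 4, 2 and Hsp47-deleted replicates 1, 2, 3. Linear values summed to 690499 to 809085 in the controls and 800714 to 855404 in the Hsp47-deleted libraries, and the read depth behind them is unknown. Across the 15109 genes tested, control replicate 2 correlated more closely with Hsp47-deleted replicate 1 (r = 0.936) than with control replicates 3 and 4 (r = 0.827 and 0.761), a description across genes that are not independent. The fitted difference was above 0 at 74.5% of genes, with a median of 0.35 (log2). *Serpinh1* did not separate the groups (6.10 to 7.60 in the controls, 6.66 to 6.87 in the Hsp47-deleted libraries), although it lay below control replicate 2 in all 3 of the latter, so these are named by their labels throughout. *Postn*, whose locus drives the Cre, rose by 4.41 ± 0.28 (SE, n = 3 against 3, log2, limma adjusted p = 0.0034). All 10 fibroblast markers passed the filter, with linear sums of 9203 to 15037 in the controls and 15993 to 19875 in the Hsp47-deleted libraries. The sums were lowest in the first-run controls. They include *Postn* itself, at 5.86 to 6.12 (log2) in the controls and 10.22 to 10.50 in the Hsp47-deleted libraries. Sums without *Postn* were not taken, so the gap between the groups cannot be read as more fibroblast transcript in general. Within the second run, the median difference of the 10 markers was 0.27 (log2), beside 0.29 for all tested genes. Markers of other cells were also read. Their sums too were lowest in the first-run controls for leukocytes (43.5 to 448 in the controls, 176 to 312 in the Hsp47-deleted), endothelial cells (99.2 to 286 and 185 to 271) and cardiomyocytes (56.4 to 287 and 181 to 296). Among 18 leukocyte markers, 16 passed the filter, while the pan-leukocyte gene *Ptprc* is listed at 0 in every library. Why it is at 0 beside the others was not tested.

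All 10 genes passed the filter (a linear mean of at least 1 over the 6 libraries). Between the groups, *Cx3cl1* alone passed the limma test at an adjusted p of 0.05, upward, where 0.232% of all tested genes were called higher and 0.0132% lower. At an unadjusted p under 0.05, 3 genes were higher (*Cx3cl1*, *Cxcl14* and *Cxcl10*) and 0 lower, against a background of 14.5% and 0.755%. The same 3 were higher in every Hsp47-deleted library than in every control, which held for 18.3% of all tested genes. None was lower in every Hsp47-deleted library (0 of 10), as 1.50% of genes were. The median difference of the 10 genes was 0.21 (log2), beside 0.35 for all genes tested. With 3 libraries against 3, an exact permutation test cannot give a two-sided p under 0.10, and groups that do not overlap reach that value.

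**Figure D1:**
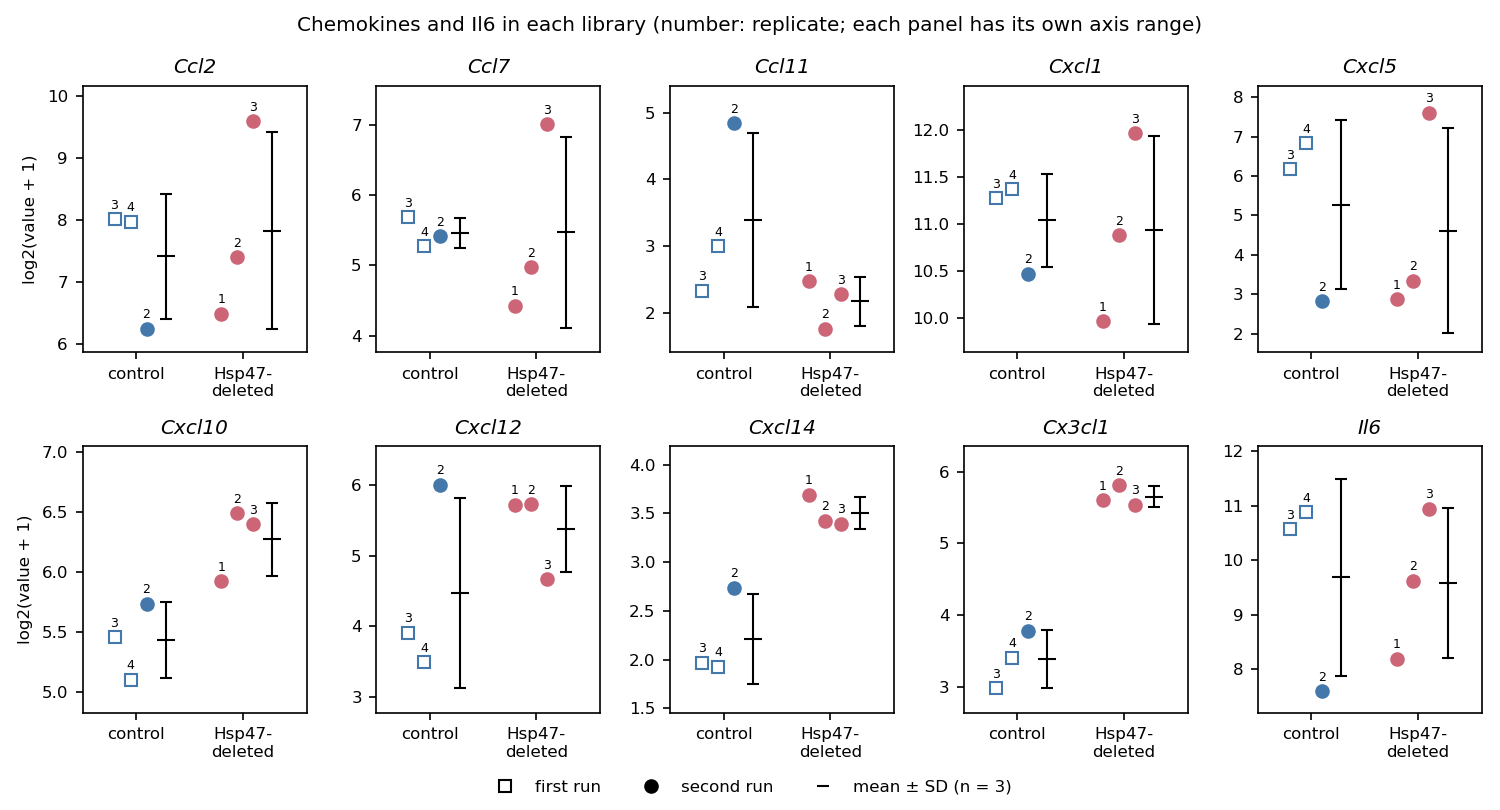
Deposited log2(value + 1) of each gene (y axis, own range per panel) in the 3 control and 3 Hsp47-deleted libraries (x axis), with the replicate number above each point, squares for the first run, circles for the second, and mean ± SD beside each group. The controls of *Cx3cl1* lie between 2.98 and 3.78 and its Hsp47-deleted libraries between 5.54 and 5.82, while *Il6* and *Cxcl5* overlap widely.

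*Cx3cl1* encodes fractalkine, a chemokine that is made as a membrane-anchored protein on a mucin stalk and can be cut loose by the proteases ADAM10 and ADAM17. It read 2.98, 3.40 and 3.78 in the controls, against 5.61, 5.82 and 5.54 in the Hsp47-deleted libraries. The groups did not overlap, and the Hsp47-deleted libraries lay within 0.27 of each other. The difference was 2.27 ± 0.31 (SE, log2, 95% interval 1.54 to 2.99), with a limma adjusted p of 0.048, and the mean linear value was 5.09 times that of the controls. Relative to the median of all tested genes, the difference was 1.91.

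Within the second run, *Cx3cl1* stood 1.83, 2.04 and 1.76 above control replicate 2 in Hsp47-deleted replicates 1, 2 and 3, at least 1 log2 unit in each, as did 2.65% of all tested genes. With run as a covariate the difference was 1.87 ± 0.36 (SE, log2) and the adjusted p was 0.17. The call rests close to its threshold. It was kept under 4 of the 17 alternatives that give a test, with adjusted p-values from 0.0034 to 0.35, while the difference stayed between 1.85 and 2.46 under all 18 alternatives. Leaving out a single library ended the call in 5 of 6 cases, the exception being control replicate 2. That fit gave the lowest adjusted p (0.0034), but its controls are all from the first run, so group and run cannot be told apart. In sorted bulk RNA, more cells that make the transcript and more transcript per cell cannot be told apart. Endothelial cells also make fractalkine. The summed endothelial markers were 162, 99.2 and 286 in the controls and 271, 239 and 185 in the Hsp47-deleted libraries, thus lower in both first-run controls and highest in control replicate 2. Of the 10 endothelial markers, 2 (*Vwf* and *Cldn5*) were above control replicate 2 in all 3 Hsp47-deleted libraries and 6 were below it. The part of endothelial cells in the result was not tested.

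*Cxcl14*, a chemokine found in many resting tissues, was the next in order of p. It read 1.97, 1.93 and 2.74 in the controls, against 3.69, 3.42 and 3.39 in the Hsp47-deleted libraries. Every Hsp47-deleted library lay above every control, and the control nearest to them was that of the second run. The difference of 1.29 ± 0.34 (SE, log2, 95% interval 0.50 to 2.09) did not pass the test (adjusted p = 0.26), and within the second run it was 0.95, 0.68 and 0.65. Without control replicate 2 the adjusted p was 0.016, but the controls are then from the first run and the Hsp47-deleted libraries from the second, so group and run cannot be told apart.

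*Cxcl12*, which draws cells that carry CXCR4 and is made by stromal cells of many organs, showed another order. It read 3.91, 3.49 and 6.01 in the controls, against 5.72, 5.73 and 4.67 in the Hsp47-deleted libraries. The highest value was that of control replicate 2, and all 4 second-run libraries exceeded both first-run libraries. The pooled difference was 0.91 ± 0.66 (SE, log2, 95% interval −0.63 to 2.44, adjusted p = 0.51), and within the second run it had the other sign, with each Hsp47-deleted library below the control by 0.28, 0.27 and 1.33 (mean −0.63). Without control replicate 2 the difference was 1.67 with an adjusted p of 0.031, where run and group again coincide. The endothelial and cardiomyocyte marker sums had their lowest value in control replicate 4, as *Cxcl12* did. The sums for fibroblasts (9203 in that library), mesothelial cells, erythroid cells and Schwann cells were also lowest there. The part of any of these cells in the result was not tested.

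The second-run libraries lay above both first-run libraries at 4 of the 10 genes (*Cx3cl1*, *Cxcl10*, *Cxcl12* and *Cxcl14*), where 35.0% of all tested genes did so. None of the 10 had all second-run libraries below the first, which 9.92% of genes did. Run therefore moved with the group at each of the 3 genes whose groups did not overlap, and its part was not tested beyond the within-run values given here.

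*Cxcl10* is induced by interferons and attracts T cells through CXCR3. It read 5.45, 5.10 and 5.73 in the controls, against 5.92, 6.49 and 6.40 in the Hsp47-deleted libraries. The groups did not overlap, but Hsp47-deleted replicate 1 lay only 0.19 above control replicate 2. The difference was 0.84 ± 0.31 (SE, log2, 95% interval 0.12 to 1.56, adjusted p = 0.30), and 0.54 on average within the second run. Of the 2252 exonic bases of *Cxcl10*, 133 (5.91%) also lie in exons of *Art3* on the opposite strand. The sources used here do not say that counting used strand, so reads from those bases could belong to either gene. *Art3* was also higher in each Hsp47-deleted library (5.35 to 6.28) than in each control (3.49 to 4.60), with a difference of 1.67 ± 0.42 (SE, log2, adjusted p = 0.24).

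*Ccl11*, or eotaxin, attracts eosinophils through CCR3. It read 2.34, 3.00 and 4.84 in the controls, against 2.48, 1.77 and 2.28 in the Hsp47-deleted libraries. Control replicate 2 stood well above the other 5 libraries, and control replicate 3 lay among the Hsp47-deleted ones. The pooled difference was −1.22 ± 0.62 (SE, log2, 95% interval −2.66 to 0.23, adjusted p = 0.38).

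Within the second run *Ccl11* had the largest mean difference of the 10 genes (−2.67), with the Hsp47-deleted libraries 2.36, 3.08 and 2.56 below control replicate 2. All 3 were at least 1 log2 unit below it, as at 0.867% of all tested genes, and *Ccl11* was the only one of the 10 with that property. With run as a covariate the difference was −2.67 ± 0.47 (SE, log2, adjusted p = 0.13), and it was below 0 under all 18 alternatives, from −2.67 to −0.49. Without control replicate 2 it was −0.49 (adjusted p = 0.39), so the size of the difference rests on that 1 library. The summed leukocyte markers were highest in the same library (448), mostly through the neutrophil genes *S100a8* and *S100a9* (333). Without that pair the sum was 116 there and 121 to 153 in the Hsp47-deleted libraries. That sum includes the macrophage marker *Cd68*, which was lower there (4.33) than in each of these (5.73 to 5.98). The sum without *Cd68* was not taken. Of 16 tested leukocyte markers, 3, *Cd68* among them, were above control replicate 2 in all 3 Hsp47-deleted libraries and 6 were below it. In control replicate 2, 6 of the 16 were highest of the 6 libraries, and the part of leukocytes in the result was not tested.

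The neighbor of *Ccl11*, *Ccl2* (MCP-1), attracts monocytes through CCR2. It read 8.02, 7.98 and 6.25 in the controls, against 6.50, 7.40 and 9.60 in the Hsp47-deleted libraries. The highest value was in Hsp47-deleted replicate 3 and the lowest in control replicate 2, with the rest of both groups between them. The difference was 0.42 ± 0.82 (SE, log2, 95% interval −1.48 to 2.32, adjusted p = 0.82). Within the second run, the 3 Hsp47-deleted libraries were 0.24, 1.15 and 3.34 above the control.

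*Ccl7* (MCP-3) attracts monocytes by receptors that it shares in part with *Ccl2*. It read 5.69, 5.27 and 5.42 in the controls, against 4.43, 4.97 and 7.01 in the Hsp47-deleted libraries. The controls kept within 0.41 of each other, while the Hsp47-deleted libraries spread over 2.58, with 2 below all controls and 1 above them. The group means were nearly equal, with a difference of 0.01 ± 0.62 (SE, log2, 95% interval −1.43 to 1.45, adjusted p = 0.997). Relative to control replicate 2, the Hsp47-deleted libraries were at −0.99, −0.45 and 1.59.

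*Cxcl1* and *Cxcl5* attract neutrophils through CXCR2. *Cxcl1* read 11.27, 11.37 and 10.47 in the controls, against 9.97, 10.88 and 11.97 in the Hsp47-deleted libraries. Hsp47-deleted replicates 1 and 3 were the lowest and the highest of all 6, so the controls lay inside the range of the other group. The difference was −0.10 ± 0.55 (SE, log2, 95% interval −1.37 to 1.17, adjusted p = 0.94). Measured from control replicate 2, the Hsp47-deleted libraries were at −0.51, 0.41 and 1.49, with a mean of 0.47 that has the other sign.

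*Cxcl5* varied most among the 10. It read 6.17, 6.83 and 2.83 in the controls, against 2.88, 3.35 and 7.60 in the Hsp47-deleted libraries. Each group held both high and low libraries, 4.00 apart in the controls and 4.73 apart in the Hsp47-deleted. Its range over the 6 libraries, 4.78, was wider than that of 98.6% of all tested genes. The difference of −0.67 ± 1.42 (SE, log2, 95% interval −3.95 to 2.62, adjusted p = 0.84) leaves changes of several log2 units in either direction inside the interval. In the second run alone, the Hsp47-deleted libraries were 0.05, 0.52 and 4.78 above the control, so the direction turned, and with run as a covariate the difference was 1.78 ± 1.62 (SE, log2, adjusted p = 0.78).

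*Il6* read 10.57, 10.88 and 7.60 in the controls, against 8.19, 9.62 and 10.95 in the Hsp47-deleted libraries. Control replicate 2 was the lowest of the 6, and Hsp47-deleted replicate 3 was the highest, 0.06 above control replicate 4. The pooled difference was −0.10 ± 0.98 (SE, log2, 95% interval −2.37 to 2.18, adjusted p = 0.97). Within the second run the 3 Hsp47-deleted libraries were 0.59, 2.02 and 3.35 above the control, and with run as a covariate the difference was 1.99 ± 0.88 (SE, log2, adjusted p = 0.73). The direction for *Il6* thus differed between the pooled and the within-run comparison.

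**Figure D2:**
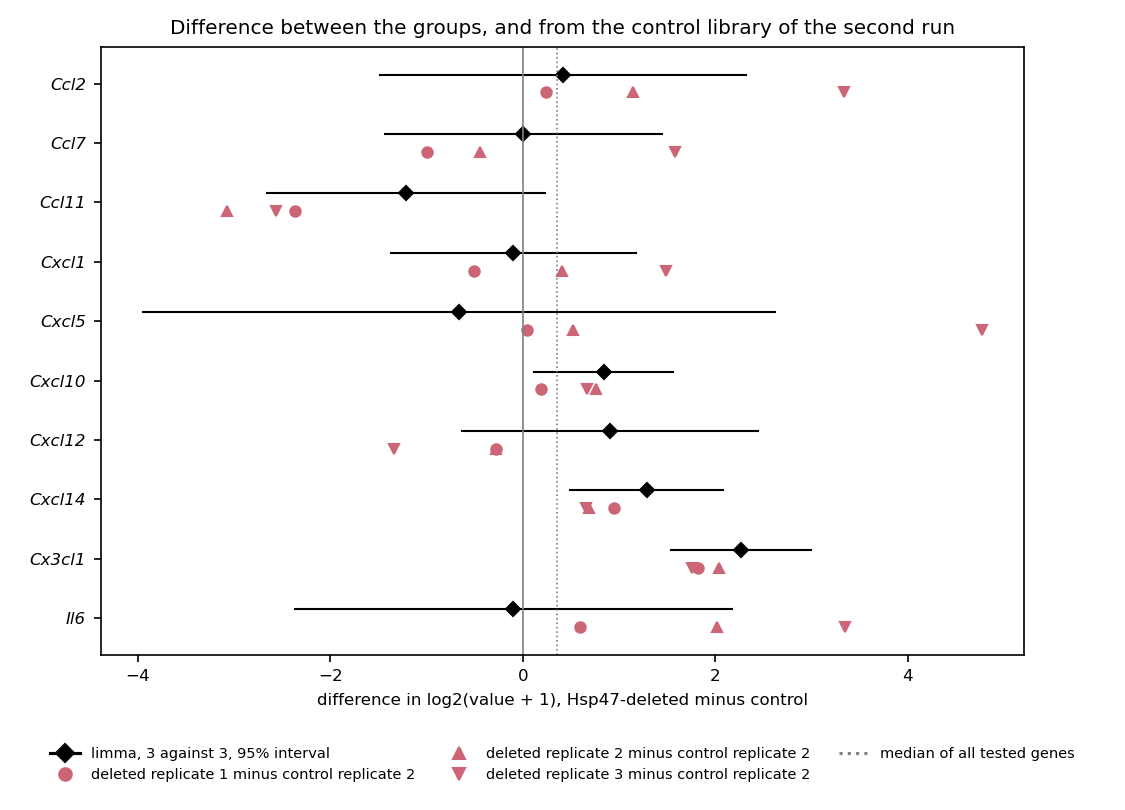
Difference in log2(value + 1), Hsp47-deleted minus control (x axis), for each gene (y axis), with diamonds and lines for limma's estimate and 95% interval over 3 against 3 libraries, red symbols for each Hsp47-deleted library minus control replicate 2, the control of the same run, and a dotted line at the median of all tested genes. *Cx3cl1* is at 2.27 pooled and 1.76 to 2.04 within the run, and *Ccl11* is at −1.22 pooled and −3.08 to −2.36 within the run.

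Within the second run, all 3 Hsp47-deleted libraries were above the control at 6 of the 10 genes (*Cx3cl1*, *Ccl2*, *Cxcl5*, *Cxcl10*, *Cxcl14* and *Il6*), where 46.7% of all tested genes were. They were all below it at 2 (*Ccl11* and *Cxcl12*), where 11.7% were. The median of the 10 within-run differences was 0.65 (log2), beside 0.29 for all tested genes.

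Much of the variation in these genes lay between libraries of the same group. At 5 of the 10 genes (*Ccl2*, *Ccl7*, *Cxcl1*, *Cxcl5* and *Il6*) the highest of the 6 libraries was Hsp47-deleted replicate 3, where 23.5% of all tested genes had their highest value. *Ccl2*, *Cxcl1*, *Cxcl5* and *Il6* were also lowest among the controls in control replicate 2, as were 36.7% of all tested genes. At those 4 genes the 3 highest libraries were the controls of the first run and Hsp47-deleted replicate 3, an order that follows neither group nor run. The share of all tested genes with the same 3 libraries highest was not counted. The 4 genes differed in their range over the 6 libraries, from 2.00 log2 units for *Cxcl1* over 3.34 for *Ccl2* and 3.35 for *Il6* to 4.78 for *Cxcl5*. In all, 7 of the 10 genes ranged over at least 2 log2 units, and the narrowest range was that of *Cxcl10* (1.39).

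**Figure D3:**
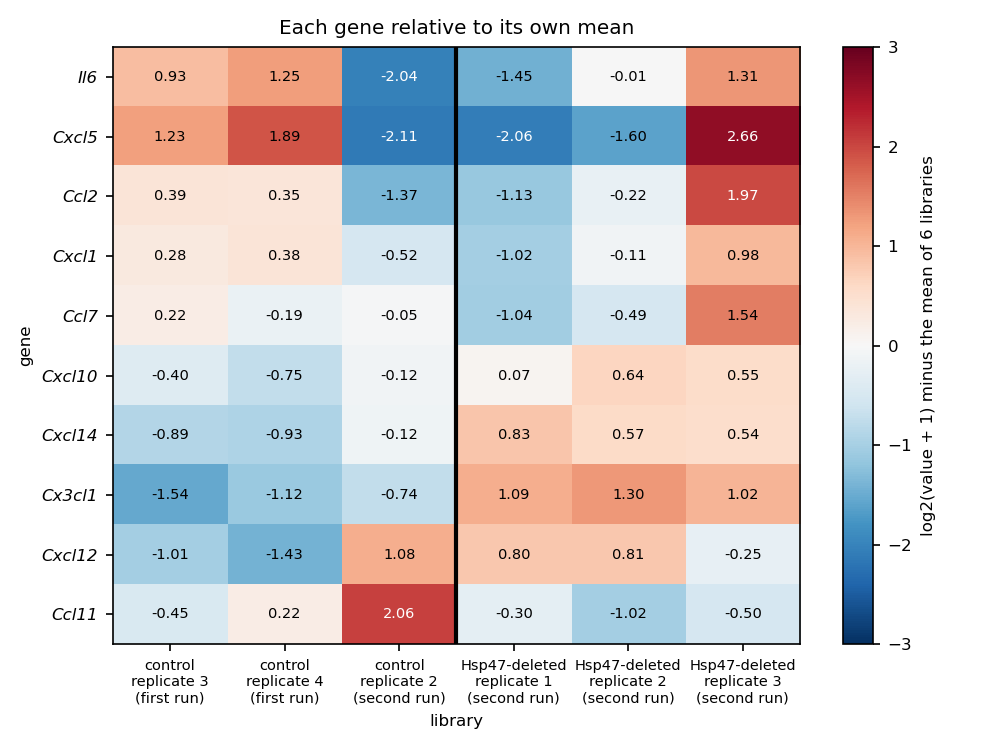
Log2(value + 1) of each gene (rows) in each library (columns) minus the gene's mean over the 6 libraries, with the value printed in each cell, red above and blue below the mean. In Hsp47-deleted replicate 3, *Cxcl5* stands 2.66 and *Ccl2* 1.97 above their means, and in control replicate 2 *Ccl11* stands 2.06 above and *Cxcl5* 2.11 below.

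Of 27 other chemokine ligands looked up, 21 genes were tested, 14 with a difference above 0 (as had 74.5% of all tested genes) and 7 below, and 0 passed the limma test. At an unadjusted p under 0.05, 1 of the 21 was higher, against 14.5% of all tested genes. Their median difference was 0.22 (log2), beside 0.35 for all genes tested. The 3 with the smallest p were *Ccl3*, a monocyte and T cell attractant that macrophages make, at 1.32 ± 0.46 (SE, adjusted p = 0.29), the platelet chemokine *Pf4* at 1.66 ± 0.93 (SE, adjusted p = 0.41) and *Ccl27a* at 1.14 ± 0.65 (SE, adjusted p = 0.41). Within the second run, the mean differences of these 3 were 0.45, −0.80 and 0.13 (log2). *Pf4* thus had the other sign there, below control replicate 2 in every Hsp47-deleted library. The median of the 21 within the run was 0.04, beside 0.29 for all tested genes. The paralogs of *Cxcl1*, *Cxcl2* and *Cxcl3*, named here after their values were seen, had the same 3 libraries highest as *Cxcl1*. *Cxcl2* read 7.06, 7.53 and 4.97 in the controls, against 5.06, 7.03 and 9.25 in the Hsp47-deleted libraries. *Cxcl3* read 3.59, 3.61 and 0.29, against 0.19, 1.71 and 5.46. For both, Hsp47-deleted replicate 3 was highest, and control replicate 2 and Hsp47-deleted replicate 1 were the 2 lowest. The same 3 libraries were also highest for *Cxcl16* and *Ccl25* of this list. So they were for genes of the lists below, among them *Lif*, *Osmr*, *Nfkb1* and *Vcam1*, while other genes there had other orders. The pattern is thus not particular to *Cxcl1* and its paralogs.

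Of the chemokine receptors, 7 were tested, 5 with a difference above 0 (as had 74.5% of all tested genes) and 2 below, and 0 passed the limma test, with 0 at an unadjusted p under 0.05. The smallest p-values were those of *Ccr2*, the receptor of *Ccl2*, at 0.25 ± 0.32 (SE, log2, adjusted p = 0.71), *Ccr4* at −0.25 ± 0.34 (SE, adjusted p = 0.73) and *Cxcr4*, the receptor of *Cxcl12*, at 0.41 ± 0.58 (SE, adjusted p = 0.75). Within the second run, the mean differences of these 3 were 0.11, −0.08 and −0.70 (log2). *Cxcr4* was below control replicate 2 there in every Hsp47-deleted library. The median of the 7 within the run was 0.11, beside 0.29 for all tested genes. *Cx3cr1*, named as the receptor of fractalkine, read 1.02 to 1.69 in the controls and 1.34 to 1.59 in the Hsp47-deleted libraries, with a difference of 0.23 ± 0.34 (SE, log2, adjusted p = 0.76). Most receptors were read at low values, and 2 of them, *Ccr8* and *Cxcr1*, are listed at 0 in every library.

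Of 6 proteases that release or trim chemokines, 5 were tested, all with a difference above 0 (as had 74.5% of all tested genes), and 0 passed the limma test. At an unadjusted p under 0.05, 1 of the 5 was higher, against 14.5% of all tested genes. *Mmp2*, a gelatinase that also clips chemokines, was at 1.07 ± 0.28 (SE, log2, adjusted p = 0.25). *Adam10* was at 0.24 ± 0.29 (SE, adjusted p = 0.71) and *Mmp14* at 0.24 ± 0.29 (SE, adjusted p = 0.70). The shared upward direction did not hold within the second run. There the mean differences were 0.97 for *Mmp2*, −0.07 for *Adam10* and −0.10 for *Mmp14* (log2). The median of the 5 was −0.07, beside 0.29 for all tested genes.

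Of 18 genes of the IL-6 family and its signaling, 16 were tested, 12 with a difference above 0 and 4 below, where 74.5% of all tested genes were above 0, and 0 passed the limma test. At an unadjusted p under 0.05, 3 of the 16 were higher and 0 lower, against 14.5% and 0.755% of all tested genes. The 3 were *Cntfr*, a receptor subunit for ciliary neurotrophic factor, at 1.52 ± 0.46 (SE, log2, adjusted p = 0.28), *Stat3*, the transcription factor downstream of gp130, at 0.84 ± 0.27 (SE, adjusted p = 0.28), and the feedback inhibitor *Socs3* at 2.67 ± 1.04 (SE, adjusted p = 0.31). *Socs3* read 2.81, 2.60 and 6.35 in the controls, against 7.25, 7.36 and 5.17 in the Hsp47-deleted libraries. It was thus low in both libraries of the first run, where *Il6* was high, and the second-run control lay inside the Hsp47-deleted range. Hsp47-deleted replicate 3, where *Il6* was highest, did not share the low *Socs3* of the first run. Within the second run, the mean differences were 0.88 for *Cntfr*, 0.82 for *Stat3* and 0.25 for *Socs3* (log2). The median of the 16 there was 0.60, beside 0.29 for all tested genes.

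All 30 genes of the NF-κB pathway and its targets were tested, 21 with a difference above 0 (as had 74.5% of all tested genes) and 9 below. None passed the limma test at an adjusted p of 0.05 (0 of 30), while 11 had an unadjusted p under 0.05, all upward, against 14.5% of all tested genes. The smallest p-values were those of *Tnip1*, an inhibitor of the pathway, at 1.11 ± 0.29 (SE, log2, adjusted p = 0.25), the subunit *Relb* at 1.41 ± 0.40 (SE, adjusted p = 0.27) and the inhibitor *Nfkbie* at 1.15 ± 0.37 (SE, adjusted p = 0.28). Their median difference was 0.49, beside 0.35 for all genes tested, and 10 of the 30 did not overlap between the groups, all higher, beside 18.3% of all tested genes. These counts come from the comparison that mixes group with run, and the part of run was not tested. Within the second run, the median of the 30 was 0.56 (log2), beside 0.29 for all tested genes. The mean differences there were 1.13 for *Tnip1*, 1.17 for *Relb* and 0.56 for *Nfkbie*.

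**Figure D4:**
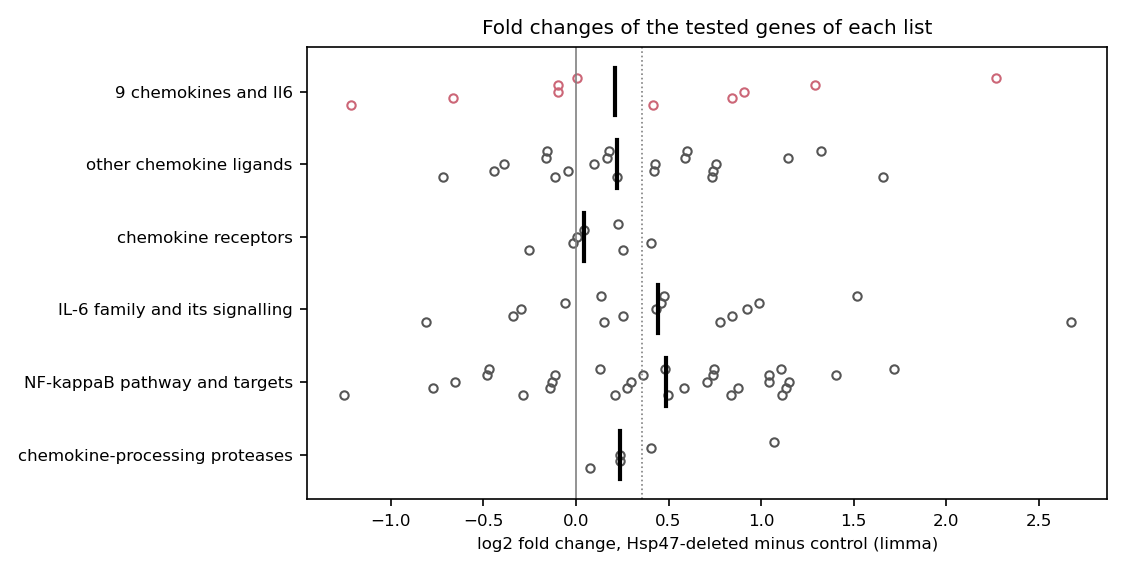
Limma log2 fold changes, Hsp47-deleted minus control (x axis), of the tested genes of each list (rows), 1 circle per gene, with a black bar at the list's median, a solid line at 0 and a dotted line at the median of all tested genes (0.35). Medians run from 0.04 for the receptors to 0.49 for the NF-κB genes, with 0.21 for the 9 chemokines and *Il6*.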

How the data were processed

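Total RNA from EGFP+ cells was amplified (Ovation RNA-Seq System v2), made into Nextera XT libraries and sequenced on a HiSeq2500. The authors deposited log2(value + 1) per gene and library. The linear unit is not given in the sources used here; the submitters' processing notes name kallisto and mm10, and the study's methods name AltAnalyze. The values hold fractions and are not counts, so depth is unknown. The authors' group means and their own comparison (fold, p-values and adjusted p-values) stand in the same table and were not used.

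Genes with a linear mean of at least 1 over the 6 libraries were kept (15109 tested, 13878 left out). The 2 groups were fitted in limma 3.58.1 under R 4.3.3 (lmFit, eBayes with a mean-variance trend, no covariate), with Benjamini-Hochberg adjustment over all genes tested and a threshold of 0.05. The script was tested on simulated data with 3 libraries against 3. Of 200 genes changed by 3 log2 units, 130 were called, along with 8 unchanged genes, and 0 were called when none changed. A gene that did not pass the test is therefore not shown to be unchanged. The genes and lists were chosen with earlier results of these data known. All 10 genes are named. From each other list, the 3 tested genes with the smallest p and any gene past the threshold are named, besides *Serpinh1*, *Postn*, *Ccr8* and *Cxcr1*. Named after their values were seen were *Art3*, *Cx3cr1*, *Cxcl2*, *Cxcl3*, *Cxcl16*, *Ccl25*, *Lif*, *Osmr*, *Nfkb1* and *Vcam1*. So were the markers *Ptprc*, *Cd68*, *S100a8*, *S100a9*, *Vwf* and *Cldn5*. P-values measure the spread between these 6 samples, and the labels do not say how many animals each holds. Fold changes understate those of low genes because of the pseudocount of 1. Alternatives were run as a covariate, the second run alone, replicate number as a block, other filters, pseudocounts, scalings and variance models, and leaving out each library. Copies were searched with minimap2 2.31-r1302.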

Additional observations from a re-analysis of the deposited data

How the results depend on the processing

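The difference for *Cx3cl1* kept its direction under all 18 alternatives, as did those for *Cxcl14*, *Cxcl10* and *Ccl11*. The number of the 10 genes called, 1 as reported, was 0 with run as a covariate, with the second run alone in limma (an alternative chosen after seeing the data, in which the lone control is assumed to vary like the other libraries), without a filter, with a pseudocount of 0.1, with quantile normalization, with each library centred on its median and without the mean-variance trend. It was also 0 in the fit with replicate number as a block. When 1 library was left out it ranged from 0 to 3: it was 3 without control replicate 2 (*Cx3cl1*, *Cxcl12* and *Cxcl14*) and 0 without any one of the others. Over all genes, 37 were called, against 2768 without control replicate 2, 50 with run as a covariate, 33 in the second run alone, 0 with the block, and 8 to 19 when another library was left out. It was 28 without a filter and 32 with a linear mean of at least 5, 16 and 28 with pseudocounts of 0.1 and 5, 17 with quantile normalization and 18 with centring. The causes were not tested.

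With run as a covariate or in the second run alone, with or without a test, the difference changed sign for *Cxcl1* (0.47), *Cxcl5* (1.78), *Cxcl12* (−0.63) and *Il6* (1.99). The replicate numbers 2 and 3 occur in both groups, but the labels do not say that they mark shared animals or days. Deviations of same-numbered libraries from their group means correlated at 0.16 and 0.23 across genes, and with only 2 shared numbers the block leaves little to estimate the spread. With the block the difference changed sign for *Cxcl1* (0.55), *Cxcl5* (0.98) and *Il6* (1.20), and the adjusted p of *Cx3cl1* was 0.35. Quantile normalization turned *Ccl2* (−0.15) and *Ccl7* (−0.39), and centring turned *Ccl7* (−0.41). It moved the median of all genes from 0.35 to −0.06, and quantile normalization to −0.05. When 1 library was left out, the difference ranged from −0.47 to 1.08 for *Ccl2*, −0.76 to 0.53 for *Ccl7*, −0.61 to 0.39 for *Cxcl1*, −2.16 to 0.20 for *Cxcl5* and −1.14 to 0.60 for *Il6*. None of these was past the threshold in any fit.

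The median difference of the 10 genes, 0.21, ranged from −0.54 to 0.91 over the alternatives, lowest without Hsp47-deleted replicate 3 and highest with the block. The unknown depth gives no interval for low values such as those of *Cxcl3* or the receptors.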
